A study of Mus musculus with 38 samples.

Results

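The enzymes described here modify or crosslink collagen. They are the 5 lysyl oxidases (Lox, Loxl1, Loxl2, Loxl3 and Loxl4), the 3 lysyl hydroxylases (Plod1, Plod2 and Plod3) and 2 catalytic subunits of prolyl 4-hydroxylase (P4ha1 and P4ha2). They were taken by gene symbol from a list drawn up with earlier results of these data known, and all 10 had a row among the 21705 genes of the mouse RNAseq table. The table holds 38 libraries in 10 groups, which are 24 libraries of tumour cell lines, 9 of kidney tumours and 5 of normal kidney. MYC mice carry a doxycycline-inducible Tet-O-MYC transgene, switched on through rtTA under the kidney-specific Ksp cadherin promoter. VM mice carry in addition Vhl F/F alleles that are recombined by tamoxifen-induced CreERT2 under the same promoter, which removes Vhl in the tubule lineage. VIM mice are as VM mice and also lack Ink4a/Arf (the Cdkn2a locus) in the germline, so their stroma lacks it too. All tumour libraries are labelled as maintained on doxycycline (Dox), and normal kidney as wild type given vehicle. The titles of 2 of the 5 kidney libraries start with B6 and those of the other 3 with KT, which the labels do not explain, and ages are not in the labels. Cell lines of each genotype were either kept on Dox or withdrawn from it, with 4 libraries of each. According to the methods of the study, RNA was taken 24 h after plating in either condition. There is a single line per genotype, so genotype and line cannot be told apart. Each tumour genotype has 3 libraries, and 2 of the 3 MYC tumour libraries come from 1 mouse (number 2983), which was counted as 1 unit in the tests. Nothing in the labels says that the 4 cell libraries of a group came from separate cultures, so their p-values measure the spread between these libraries, which may be technical.

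Collagen chains are hydroxylated in the endoplasmic reticulum before they fold. Prolyl 4-hydroxylase, a tetramer of a catalytic alpha chain (P4ha1, P4ha2 or P4ha3) with P4hb, makes the hydroxyproline that stabilises the triple helix. The Plod enzymes hydroxylate lysines, and Plod2 acts mainly on the telopeptides, which directs the type of crosslink formed later. Outside the cell the lysyl oxidases, which need copper, turn lysines into aldehydes that condense into crosslinks between collagen or elastin chains. Several of these genes, with Lox, Loxl2, Plod2, P4ha1 and P4ha2 as the usual examples, are known targets of the hypoxia-inducible factors (HIF) that VHL marks for destruction.

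RefSeq gives promoter windows (build GRCm38.p6) for 5 of the 10 genes, namely Loxl4, Plod1, Plod3, P4ha1 and P4ha2. Those of P4ha1 and P4ha2 are printed because these subunits of the same enzyme differed in the tumours, and those of Loxl4 and Plod1 because both genes were low in Dox. Each line gives the 250 bases before the annotated start, 5′ to 3′ on the strand of the gene, with capitals for the letters ACGTG or GCGTG on either strand (CACGT or CACGC when read on the printed strand). These are the core letters that HIF binds.
P4ha1, chr10:59323046-59323295, + strand: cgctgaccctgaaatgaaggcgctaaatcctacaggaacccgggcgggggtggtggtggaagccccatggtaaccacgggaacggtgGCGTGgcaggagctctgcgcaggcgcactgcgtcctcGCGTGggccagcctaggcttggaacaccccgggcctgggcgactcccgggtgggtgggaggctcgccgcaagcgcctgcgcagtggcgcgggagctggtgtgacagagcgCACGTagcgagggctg
P4ha2, chr11:54100674-54100923, + strand: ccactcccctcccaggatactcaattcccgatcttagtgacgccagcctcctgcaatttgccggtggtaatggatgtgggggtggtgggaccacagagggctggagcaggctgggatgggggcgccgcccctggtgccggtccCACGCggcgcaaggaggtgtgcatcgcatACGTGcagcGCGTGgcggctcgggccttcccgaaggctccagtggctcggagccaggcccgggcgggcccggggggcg
Loxl4, chr19:42612807-42613056, - strand: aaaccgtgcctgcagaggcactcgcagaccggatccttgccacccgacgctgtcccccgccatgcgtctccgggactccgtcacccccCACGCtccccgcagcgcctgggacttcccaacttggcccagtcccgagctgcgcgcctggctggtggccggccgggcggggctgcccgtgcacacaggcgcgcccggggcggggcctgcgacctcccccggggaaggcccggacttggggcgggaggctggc
Plod1, chr4:147936777-147937026, - strand: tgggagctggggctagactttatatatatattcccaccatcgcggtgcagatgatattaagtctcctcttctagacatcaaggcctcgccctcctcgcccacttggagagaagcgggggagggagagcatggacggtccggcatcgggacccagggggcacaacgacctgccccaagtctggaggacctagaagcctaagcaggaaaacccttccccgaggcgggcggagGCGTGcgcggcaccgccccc
ACGTG occurs once in the windows of P4ha1, P4ha2 and Plod3 and in neither of the others. GCGTG occurs 3 times in Plod3, 2 times each in P4ha1 and P4ha2, and once each in Plod1 and Loxl4. The E-box CACGTG, the letters bound by MYC with its partner MAX, is in none of the 5 windows. Among 32851 windows of the same length, 16.6% held ACGTG, 28.2% GCGTG, 38.6% at least one of these and 6.02% CACGTG. A match is a description of the letters and not a binding site.

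The values are RSEM estimates that the authors scaled to an upper quartile of 1000 per library, and they are called units below. The libraries held 8.22 to 36.6 M estimated reads, and 3 reads, used as the floor of detection, were worth 1.16 to 5.65 units. Vhl was at 8.32 to 38.8 units in VM and VIM cells and at 433.4 to 543.4 in MYC cells. In tissue it was at 40.2 to 79.9 units in VM tumours but at 219.3 to 312.1 in VIM tumours, against 612.3 to 771.6 in kidney. Cdkn2a was at 24.9 to 40.8 units in VIM cells and at 3056 to 5701 in the other lines. VIM tumours differed in Cdkn2a from VM tumours by −6.40 ± 0.44 on the log2 scale (SE, limma, adjusted p = 0.00191). They were nevertheless above kidney, by 4.57 ± 0.65 (adjusted p = 0.000297), and the source of these reads was not tested. The Myc row was lower in every library labelled as with Dox (337.9 to 699.4 units) than in those labelled as without (1308 to 1868). Whether reads of the transgene were assigned to this row is not given in the sources used here, so it does not check the Dox label and every direction below follows the labels. Cdkn2a differed between the 2 MYC tumour libraries of mouse 2983, with 2872 and 59.3 units. Of 8 renal epithelial markers, only Pax2 in VM tumours was under the floor in all libraries of a group, and Cdh16 was at 3464 units or more in every library. In bulk samples such as these, fewer cells of a type and less RNA per cell cannot be told apart.

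**Figure D1:**
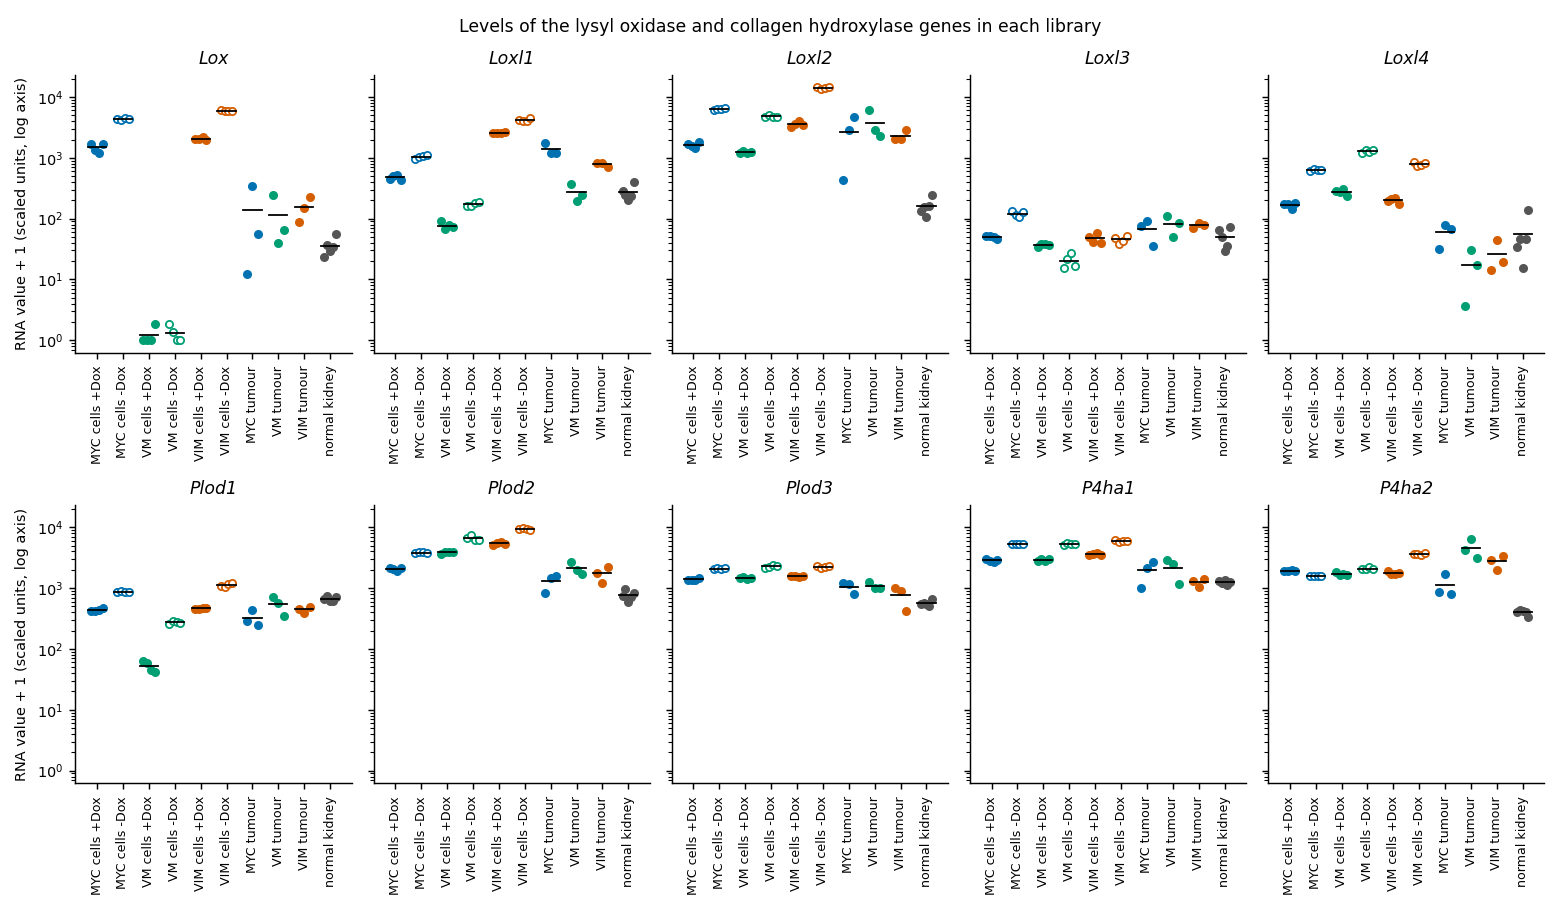
RNA values (units plus 1, log axis) of the 10 genes in each of the 38 libraries. Points are libraries (filled with Dox or tissue, open without Dox), bars are group means, and colours mark MYC, VM, VIM and normal kidney. Lox was at the floor in VM cells with 0 to 0.882 units, and Loxl2 was lowest in normal kidney.

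Lox was the member with the widest span. It measured 1703, 1362, 1213 and 1676 units in MYC cells with Dox and 4311, 4132, 4437 and 4381 without. In VIM cells it was at 2001, 2070, 2226 and 1988 units with Dox and at 6204, 5980, 5944 and 5811 without. The groups with and without Dox did not overlap in either line, and Lox fell by 1.55 ± 0.075 on the log2 scale in MYC cells (SE, adjusted p = 1.08e-12) and by 1.53 ± 0.04 in VIM cells (adjusted p = 1.91e-19).

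VM cells had next to no Lox RNA. Their values were 0, 0, 0 and 0.877 units with Dox and 0.882, 0.388, 0 and 0 without, all at or under the floor. Against that floor, averaged over the group, Lox was at least 832.9-fold higher in VIM than in VM cells with Dox and at least 2845-fold higher without. It was at least 598.5-fold lower in VM than in MYC cells with Dox and at least 2052-fold lower without. VIM and VM cells share the loss of Vhl, so both the highest and the lowest Lox levels of the series were found in Vhl-/- lines. VIM cells exceeded MYC cells 1.39-fold both with and without Dox, which missed the required doubling.

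In tissue Lox was scarcer than in MYC or VIM cells. Tissue libraries carry sample indices that restart apart from those of the cells. They were also shallower, at 8.22 to 15.5 M estimated reads against 12.4 to 36.6 M in cells. For differences between cells and tissue, here and below, handling and origin therefore cannot be told apart. Normal kidney held 22.5, 36.5, 28.1, 32.6 and 54.4 units, and VIM tumours held 88.5, 147.9 and 225.8 units, above all kidneys. VM tumours were at 241.0, 39.2 and 62.9 units, and MYC tumours at 11.2 units in mouse 2917 and at 341.0 and 55.1 units in the libraries of mouse 2983. Lox rose by 2.07 ± 0.41 in VIM tumours (SE, adjusted p = 0.002), while the differences were 1.31 ± 0.57 in VM tumours (adjusted p = 0.0775) and 0.26 ± 0.83 in MYC tumours (adjusted p = 0.818). Leaving out the library of mouse 2917 brought the MYC tumour difference to 2.01 (adjusted p = 0.0146), and leaving out the VM tumour of mouse 3055 brought that of VM tumours to 1.86 (adjusted p = 0.0242). The MYC tumour library with 341.0 units of Lox also had the highest sum of fibroblast markers (12470 units over 9 genes, against 1146 and 1008 in the others), whose part in the result was not tested. The VM cell line that the study describes as sequenced carries the number 3055, as does the mouse of 1 VM tumour library, which held 39.2 units of Lox while no VM cell library exceeded 0.882.

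Loxl2, which oxidises lysines of type IV and fibrillar collagens, was the most abundant lysyl oxidase per kilobase of exon in most groups. It measured 1707, 1569, 1471 and 1843 units in MYC cells with Dox, against 6064, 6448, 6348 and 6526 without. VM cells had 1202, 1282, 1206 and 1246 units with Dox and 4713, 5016, 4713 and 4758 without. VIM cells had 3181, 3603, 3958 and 3498 units with Dox and 14350, 13750, 13900 and 14490 without, the latter being the highest values of any member. The differences with Dox were −1.95 ± 0.05, −1.96 ± 0.04 and −1.99 ± 0.05 on the log2 scale in MYC, VM and VIM cells (SE), and all passed. Pairwise tests of the differences between these responses gave 95% intervals of −0.17 to 0.11 (VIM against VM), −0.16 to 0.14 (VM against MYC) and −0.21 to 0.13 (VIM against MYC).

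Tumours held far more Loxl2 than normal kidney. The kidneys were at 133.2, 151.8, 107.1, 159.6 and 246.7 units. MYC tumours were at 435.6, 2884 and 4708 units (the first from mouse 2917), VM tumours at 6158, 2839 and 2269, and VIM tumours at 2034, 2068 and 2858. No tumour library overlapped with kidney. Loxl2 rose by 3.04 ± 0.70 in MYC, 4.46 ± 0.35 in VM and 3.89 ± 0.27 in VIM tumours (SE, log2 scale), with adjusted p-values of 0.00713, 5.4e-06 and 4.86e-06. Without the library of mouse 2917 the difference in MYC tumours was 4.58. The ratio of the means over libraries was 23.5 in VM and 14.5 in VIM tumours. In MYC tumours it was 16.8, but ratios for this group count mouse 2983 with both of its libraries, here and below, whereas the tests count it once. Against only the 2 kidney libraries with B6 in their title, the MYC tumour difference of 3.40 no longer passed (adjusted p = 0.0532). The annotated gene Gm16867 lies within Loxl2 on the other strand, and the strand setting of the read counting is not given in the sources used here.

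Loxl1, which crosslinks elastin and is tied to elastic fibre upkeep, separated the lines by a wide margin. With Dox it was at 452.8, 504.6, 513.1 and 426.6 units in MYC cells, at 89.4, 65.5, 77.2 and 71.0 in VM cells and at 2522, 2543, 2523 and 2619 in VIM cells. Without Dox it was at 940.9, 1022, 1073 and 1125 units in MYC, at 162.3, 157.8, 179.1 and 183.8 in VM and at 4128, 4104, 4090 and 4545 in VIM cells. The 6 groups did not overlap. VIM cells exceeded VM cells 33.7-fold with Dox and 24.7-fold without (adjusted p = 8.75e-18 and 1.12e-18). With Dox it fell by 1.13 ± 0.06 in MYC and by 1.17 ± 0.115 in VM cells (SE), and the difference in VIM cells was −0.72 ± 0.03. The call in VM cells was lost under quantile normalization, with a difference of −0.59.

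In tissue Loxl1 was at 285.5, 242.3, 204.8, 234.5 and 399.7 units in kidney. MYC tumours were highest at 1760, 1182 and 1202 units, VIM tumours followed at 815.4, 832.1 and 701.2, and VM tumours overlapped with kidney at 374.2, 191.8 and 245.4. It rose 5.05-fold in MYC tumours (adjusted p = 0.000223) and 2.86-fold in VIM tumours (adjusted p = 0.000359). The difference in VM tumours was −0.03 ± 0.28 on the log2 scale. VM cells and VM tumours thus had the lowest Loxl1 among the cells and among the tumours.

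Loxl4 was highest in VM cells. It was at 287.4, 276.6, 301.4 and 238.6 units in VM cells with Dox and at 1222, 1325, 1257 and 1367 without. VIM cells had 190.9, 210.7, 213.9 and 176.1 units with Dox and 847.4, 744.7, 759.2 and 808.8 without. MYC cells had 173.3, 174.6, 145.2 and 176.6 units with Dox and 597.1, 645.5, 625.6 and 637.1 without. With and without Dox the groups did not overlap in any line, whereas VIM and MYC cells overlapped with Dox. The differences with Dox were −1.90 ± 0.06 in MYC, −2.23 ± 0.07 in VM and −1.99 ± 0.07 in VIM cells (SE), and all passed. Tumours held 2.66 to 78.7 units and kidney 14.7 to 137.9, and these overlapped. Every cell library, at 145.2 units or more, was above every tissue library.

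Loxl3 was sparse everywhere, at 14.4 to 133.4 units. In MYC cells it fell from 104.2 to 133.4 units without Dox to 44.5 to 50.4 with Dox (1.27 ± 0.10 on the log2 scale, SE). In VM cells the order was the other way, 33.3 to 37.5 units with Dox and 14.4 to 26.6 without, a difference of 0.90 ± 0.20 (adjusted p = 0.000607) that missed the required doubling. It exceeded it under quantile normalization (1.37) and without replicate 3 of VM cells without Dox (1.06). In VIM cells the groups overlapped (0.05 ± 0.17). The call in MYC cells was lost under quantile normalization (−0.96). The gene overlaps with Htra2 on the other strand.

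**Figure D2:**
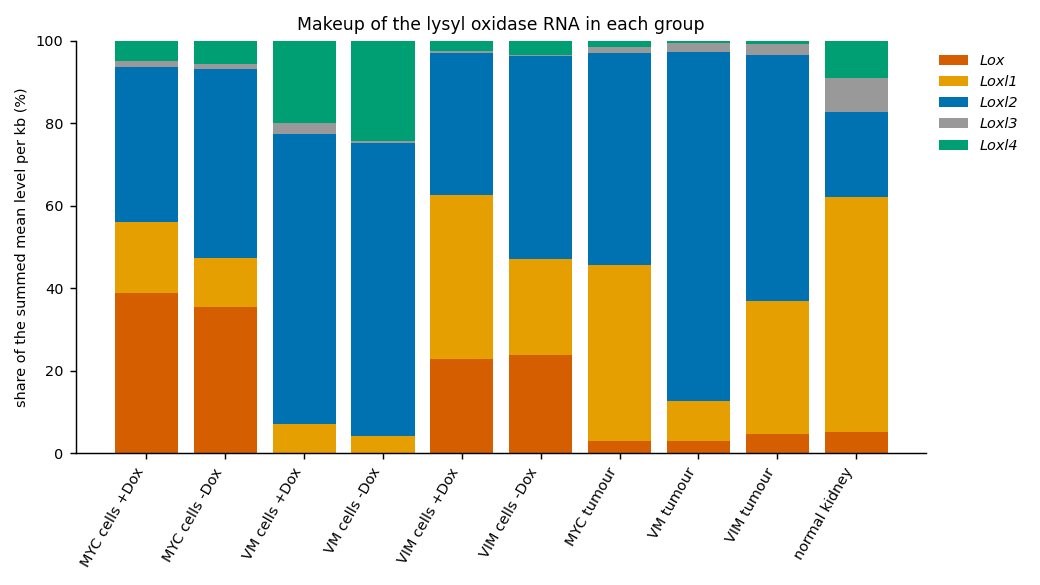
Share of each lysyl oxidase gene in the summed group mean per kilobase of exon (percent, bars to 100), for the 10 groups. Loxl2 made up 70.4% in VM cells with Dox and 84.5% in VM tumours, and Loxl1 made up 56.8% in normal kidney.

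Per kilobase of annotated exon, the groups differed in which lysyl oxidase dominated. In normal kidney Loxl1 led with 56.8% of the summed family level, and Loxl2 followed with 20.7%. In tumours Loxl2 led with 51.4% in MYC, 84.5% in VM and 59.8% in VIM tumours. Among cells with Dox, Lox (38.7%) and Loxl2 (37.7%) shared the lead in MYC cells, Loxl2 led in VM cells (70.4%) and Loxl1 in VIM cells (39.6%). Without Dox Loxl2 led in all 3 lines, with 45.8%, 71.2% and 49.1% in MYC, VM and VIM cells. Loxl4 was second in VM cells, at 19.98% with Dox and 24.3% without.

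Among the lysyl hydroxylases, Plod1 was the one that varied most between lines. It had 62.1, 57.02, 44.1 and 41.2 units in VM cells with Dox and 258.4, 282.3, 277.5 and 269.7 without. MYC cells had 427.1, 412.7, 432.9 and 475.4 units with Dox and 853.7, 887.0, 857.6 and 865.1 without. VIM cells had 459.5, 461.0, 461.9 and 463.7 units with Dox and 1082, 1049, 1178 and 1195 without. VM cells were thus lowest in either condition, 9.03-fold under VIM cells and 8.55-fold under MYC cells with Dox. Plod1 fell by 2.41 ± 0.13 in VM cells and by 1.28 ± 0.05 in VIM cells (SE). The difference in MYC cells was −0.99 ± 0.04, just short of the doubling, and became −1.03 without 1 of the libraries with Dox.

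In tissue Plod1 was highest in normal kidney, at 662.6, 743.1, 623.8, 623.8 and 707.1 units. MYC tumours were at 285.4, 441.4 and 244.4 units and VIM tumours at 452.0, 392.2 and 490.1, all below kidney, whereas VM tumours reached into its range with 725.7, 570.1 and 346.5. It fell by 1.13 ± 0.14 in MYC tumours (SE, adjusted p = 0.000379), and this was the only member below kidney past the threshold. Without the library with 244.4 units, 1 of the 2 from mouse 2983, the difference was −0.92 and no longer passed. The difference in VIM tumours was −0.60 ± 0.15 (adjusted p = 0.00767).

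Plod2 was the leading lysyl hydroxylase per kilobase in every group. In cells with Dox it spanned 1913 to 2175 units in MYC, 3682 to 3989 in VM and 5194 to 5837 in VIM cells, and without Dox 3802 to 3864, 6080 to 7379 and 9025 to 9710 units. Libraries with Dox were lower in each line, by 0.89 ± 0.03, 0.76 ± 0.06 and 0.78 ± 0.04 on the log2 scale (SE), which is less than the required doubling. VIM cells exceeded MYC cells 2.65-fold with Dox and 2.46-fold without (adjusted p = 1.1e-12 and 4.68e-15). VM cells exceeded MYC cells 1.87-fold with Dox, a difference of 0.91 that passed only under quantile normalization (1.02).

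Normal kidney held 732.9, 976.5, 596.8, 716.2 and 843.5 units of Plod2. VM tumours held 2738, 1996 and 1706 units and VIM tumours 1779, 1224 and 2219, all above kidney, while MYC tumours with 829.2, 1446 and 1599 units overlapped with it. Plod2 rose 2.78-fold in VM tumours (adjusted p = 0.000175) and 2.25-fold in VIM tumours (adjusted p = 0.00191), and the latter missed the doubling without the tumour of mouse 3130 (0.95). The MYC tumour difference was 0.56 ± 0.26 (SE, adjusted p = 0.108).

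Plod3, which also carries a glycosyltransferase activity, was the steadiest of the 10. It lay between 1346 and 1585 units in all cells with Dox and between 2071 and 2413 in all cells without. The differences in Dox were −0.60 ± 0.03, −0.64 ± 0.05 and −0.53 ± 0.03 in MYC, VM and VIM cells (SE). The largest difference between lines at equal Dox was 0.173 on the log2 scale, for VIM against MYC cells with Dox (0.276 under quantile normalization). Kidney held 515.0 to 659.0 units, MYC tumours 808.3 to 1195, VM tumours 1001 to 1250 and VIM tumours 417.5 to 994.6. Without 1 library of mouse 2983 (the one with 808.3 units), the MYC tumour difference of 0.93 became 1.07 and passed. Plod3 overlaps with Mir702 on its own strand and with Znhit1 on the other.

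P4ha2 differed between libraries with and without Dox in opposite directions in MYC and VIM cells. MYC cells held 1883, 1898, 1999 and 1878 units with Dox and 1598, 1592, 1566 and 1611 without. VM cells held 1811, 1659, 1695 and 1665 units with Dox and 2051, 2074, 2190 and 2075 without. VIM cells held 1919, 1730, 1724 and 1756 units with Dox and 3637, 3576, 3551 and 3806 without. With Dox the lines were thus close together (1659 to 1999 units), and without it they were apart. The differences were 0.27 ± 0.03 in MYC cells, −0.30 ± 0.04 in VM cells and −1.03 ± 0.04 in VIM cells (SE), and only the last passed.

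P4ha2 also set the tumours apart from kidney. The kidneys were at 406.6, 435.0, 420.3, 407.2 and 339.0 units. MYC tumours held 848.9, 1682 and 802.3 units, VIM tumours 2893, 2008 and 3418, and VM tumours 4177, 6425 and 3136. It rose 2.77-fold in MYC (adjusted p = 0.000475), 6.90-fold in VIM (adjusted p = 5.04e-06) and 11.4-fold in VM tumours (adjusted p = 1.26e-06). The lowest tumour library had 802.3 units and the highest kidney 435.0.

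P4ha1, the subunit of the major form of the enzyme, moved less. Cells with Dox had 2678 to 2981 units in MYC, 2840 to 3000 in VM and 3441 to 3780 in VIM cells, against 5237 to 5314, 5193 to 5585 and 5819 to 6156 without. The differences in Dox were −0.89 ± 0.03, −0.88 ± 0.04 and −0.74 ± 0.03 (SE). Kidney held 1304, 1204, 1341, 1124 and 1237 units, VIM tumours 1286, 1034 and 1402, MYC tumours 1016, 2160 and 2668 and VM tumours 2870, 2498 and 1150, and each tumour group overlapped with kidney. Without the VM tumour of 1150 units (mouse 2459), the VM tumour difference of 0.70 became 1.11 and passed. Per kilobase of exon P4ha1 exceeded P4ha2 in kidney (82.4% of the 2), in MYC tumours (72.7%) and in all cells (69.3% to 83.4%), but P4ha2 led in VM tumours (58.2%) and VIM tumours (59.6%). The third catalytic subunit, P4ha3, stayed at 17.4 units or less in every library, and the partner P4hb was at 10050 to 47830 units.

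The comparison of libraries labelled with and without Dox asks how these genes differ with Dox, which switches on the MYC transgene, within a line. No line without the transgene was given Dox, so effects of the transgene and of Dox itself cannot be told apart. Of the 10 genes 5 passed in MYC cells (Lox, Loxl1, Loxl2, Loxl3 and Loxl4), against 19.5% of all genes called and 15% called lower. In VM cells 4 of 9 tested passed (Loxl1, Loxl2, Loxl4 and Plod1), against 24.8% called and 18.9% called lower, and Lox was not tested because it was above 0 in too few libraries. In VIM cells 5 of 10 passed (Lox, Loxl2, Loxl4, Plod1 and P4ha2), against 24.3% called and 16.6% called lower. All of these were lower in Dox. The median differences of the members were −1.06, −0.88 and −0.91 on the log2 scale, and those of all genes tested were −0.13, −0.26 and −0.15. Loxl2 and Loxl4 passed in all 3 lines. Since the medians of all genes lie below 0, the settings with another scaling matter here. Under quantile normalization the medians became 0.02, −0.02 and 0.01, and the share of lower genes among all those called went from 77% to 57.6% in MYC, from 76.2% to 53% in VM and from 68.4% to 50.7% in VIM cells. The same normalization gave 4, 4 and 5 members called. In VM cells Loxl1 was then lost and Loxl3, which was higher in Dox (1.37), was gained. Loxl2 and Loxl4 stayed between −1.76 and −2.02 in all 3 lines.

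**Figure D3:**
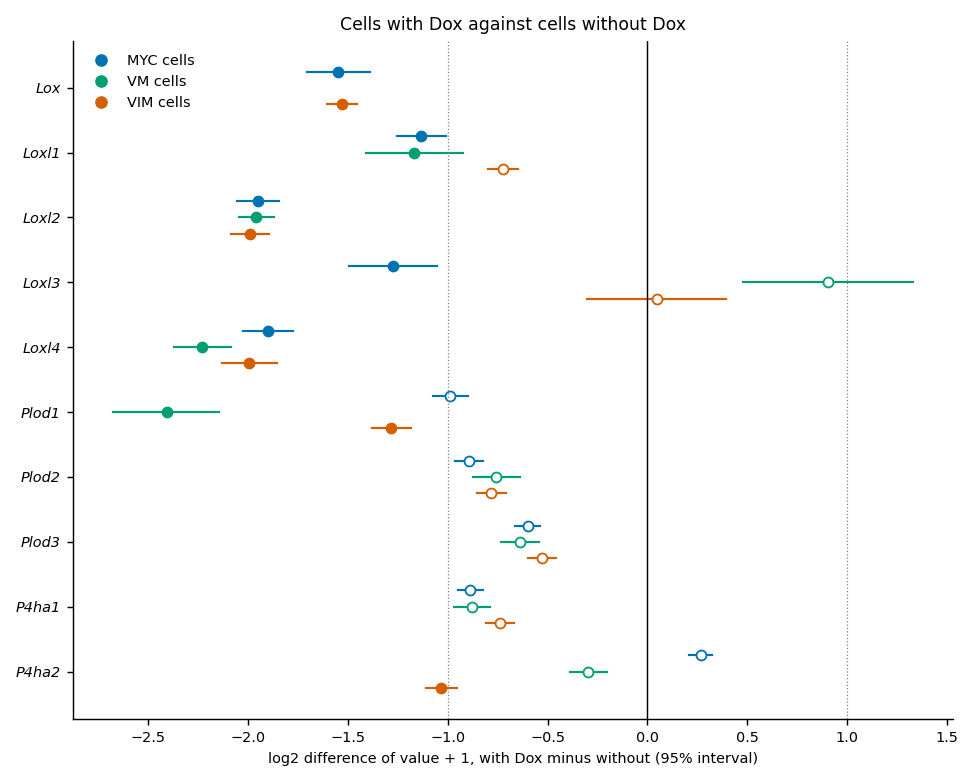
Log2 difference of value plus 1 between cells with and without Dox, for each gene in MYC, VM and VIM cells, with 95% intervals. Filled points passed the test and dotted lines mark a doubling. Loxl2 lies at −1.95, −1.96 and −1.99 in the lines, and P4ha2 at 0.27, −0.30 and −1.03.

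Markers of other cell types also moved with Dox in the lines. In MYC cells the sum of 6 mural cell markers was 16950 to 19780 units with Dox and 68780 to 73560 without, led by the actin Acta2, while the pericyte gene Rgs5 was at 0. The sum of 9 fibroblast markers was 296.9 to 309.4 units with Dox and 991.5 to 1180 without in the same line. The fibroblast sum was 87.4 to 111.5 units with Dox and 631.4 to 710.9 without in VM cells, where the collagen I chain Col1a2 alone reached 606.7 to 683.7 without Dox. In VIM cells it was 25.9 to 36.1 units with Dox and 140.8 to 180 without. The mural sum was 963.5 to 1181 units with Dox and 1753 to 1998 without in VM cells, and 1104 to 1293 against 6021 to 6630 in VIM cells. In VM and VIM cells the fibroblast marker Thy1 was at 0 in all libraries, and Lum did not rise above the floor in any. The part of these signals in the results was not tested. The sum of the renal epithelial markers was lower in Dox as well, at 13320 to 14910 against 20500 to 21560 units in MYC cells.

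Tests of the line by Dox interaction, over 16 libraries for each pair of lines, showed where the response differed. Plod1 fell more in VM cells than in the others, with differences of the decreases of 1.13 ± 0.13 (VIM against VM) and −1.42 ± 0.13 (VM against MYC) on the log2 scale (SE). For Loxl3 the response differed from that in MYC cells by 2.18 ± 0.23 in VM and by 1.32 ± 0.20 in VIM cells. For P4ha2 the response in VIM cells lay 1.30 ± 0.05 below that in MYC cells (−1.30, adjusted p = 5.74e-15). Lox also passed in both pairs with VM cells (−1.41 and 1.43), but there it was at the floor, and the value is set by the pseudocount. With a pseudocount of 0.1 neither passed (adjusted p = 0.485 and 0.459). In all 2 of 10 passed for VIM against VM (6.05% of all genes called), 3 of 10 for VM against MYC (8.78%) and 2 of 10 for VIM against MYC (9.06%). Under quantile normalization Plod1 no longer passed in either pair (0.40 and −0.72).

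The lines were next compared at equal Dox. VIM cells exceeded VM cells in 4 of 10 members with Dox (Lox, Loxl1, Loxl2 and Plod1; 19.1% of all genes called, 9.69% higher) and in 5 of 10 without, where Loxl3 joined them (21.7% called, 9.21% higher), although with a pseudocount of 10 its difference of 1.19 was 0.91. Loxl2 was 2.89-fold and 2.94-fold higher. The study had already reported Lox, Loxl1 and Loxl2 as higher in its VIM line than in its VM line. The calls of these genes here are therefore not independent of how the members were chosen. VM cells were below MYC cells in 3 of 10 with Dox (Lox, Loxl1 and Plod1; 24.6% called, 18.1% lower). Without Dox 5 of 10 passed (24.9% called), with Lox, Loxl1, Loxl3 and Plod1 lower and Loxl4 higher in VM cells by 2.06-fold. VIM cells exceeded MYC cells in 3 of 10 with Dox (Loxl1, Loxl2 and Plod2; 23.9% called, 5.66% higher). Without Dox 5 of 10 passed (26.2% called), with Loxl1, Loxl2, Plod2 and P4ha2 higher and Loxl3 lower in VIM cells (−1.40, and −0.88 under quantile normalization). P4ha1 and Plod3 passed in none of these 6 comparisons. Mural cell markers differed between the lines too. Acta2 was at 15670 to 18450 units in MYC, 0 to 1.48 in VM and 441.5 to 614.8 in VIM cells with Dox, and the receptor gene Pdgfrb at 36.4 to 59.3, 0 to 1.70 and 24.3 to 41.6 units. Both were thus near 0 in VM cells, as was Lox. With Dox the 6 mural markers summed to 16950 to 19780 units in MYC cells. The sum was 963.5 to 1181 units in VM and 1104 to 1293 in VIM cells. In VM cells 5 of these were at or under the floor in all libraries with Dox, and Cspg4 made up nearly all the sum. Cspg4 was thus not near 0 in VM cells. The part of these markers in the results was not tested. In the 4 comparisons with MYC cells the lower share of all genes called depended on the scaling: it was 73.4% and 66.5% for VM cells with and without Dox and 76.4% and 73.7% for VIM cells, and 50.2%, 48.9%, 54.2% and 53% under quantile normalization. The libraries of MYC cells carry sample indices that restart apart from those of VM and VIM cells, so a difference in handling and the line cannot be told apart.

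Against normal kidney, 4 of 10 members passed in MYC tumours, with Loxl1, Loxl2 and P4ha2 higher and Plod1 lower (37.4% of all genes called). In VM tumours 3 of 10 passed, Loxl2, P4ha2 and Plod2, all higher (39.8% called, 17.3% higher). In VIM tumours 5 of 10 passed, Lox, Loxl1, Loxl2, P4ha2 and Plod2, all higher (39.6% called, 18.9% higher). Loxl2 and P4ha2 rose in all 3 tumour groups. These comparisons share the 5 kidney libraries. The tumours were on Dox, with tamoxifen used in VM and VIM mice, whereas the kidneys were wild type given vehicle. Tumour state, genotype and treatment thus cannot be told apart. The VM tumour count was 5 without the tumour of mouse 3055, with Lox higher (1.86) and Loxl4 lower (−2.47) joining. The cell makeup differed between these tissues. The sum of 7 proximal tubule markers was 431000 to 1436000 units in kidney and at most 10600 in tumours, and that of 7 endothelial markers was 4115 to 7127 against 227.4 to 2261. The sum of 8 leukocyte markers was 1396 to 2560 units in kidney and 1304 to 6913 in tumours. The fibroblast marker sum was 1159 to 4245 units in kidney, 604.1 to 1756 in VM, 986.8 to 2560 in VIM and 1008 to 12470 in MYC tumours. The part of these cells in the results was not tested.

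**Figure D4:**
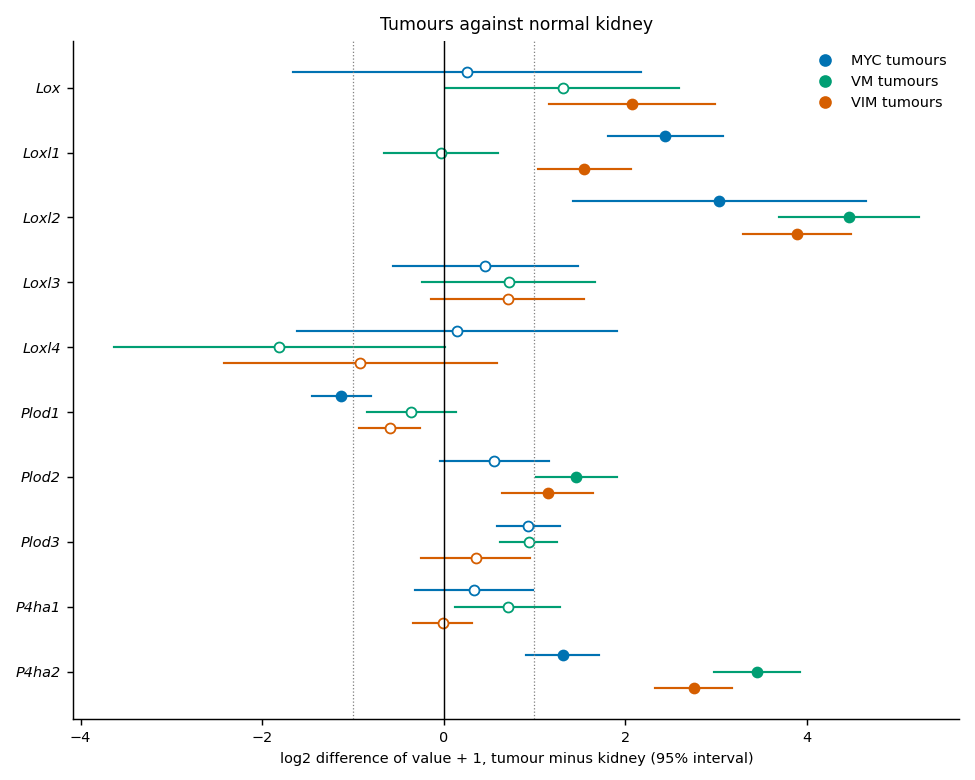
Log2 difference of value plus 1 between each tumour group and normal kidney for the 10 genes, with 95% intervals. Filled points passed the test and dotted lines mark a doubling. Loxl2 (3.04, 4.46 and 3.89 in MYC, VM and VIM tumours) and P4ha2 (1.31, 3.45 and 2.75) lie furthest to the right in VM and VIM tumours.

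Between the tumour genotypes no member passed with limma, nor with limma voom on the recovered reads. For VM against MYC tumours (0% of all genes called) 3 of 10 had an unadjusted p under 0.05, Loxl1, Plod2 and P4ha2. Loxl1 was 5.11-fold lower and P4ha2 4.12-fold higher in VM tumours, both with an adjusted p of 0.145. For VIM against MYC tumours (0.00616% called) Loxl1 and P4ha2 had an unadjusted p under 0.05, and for VIM against VM tumours (0.249% called) Loxl1 alone, which was 2.90-fold higher in VIM tumours (adjusted p = 0.118). The intervals were wide, for example −1.90 to 4.01 for Lox between VM and MYC tumours, where the MYC group holds 2 mice.

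Other genes of collagen maturation were followed in lists. Of 13 further collagen modifying enzymes and chaperones, 3 of 13 tested passed with Dox in MYC cells, 2 of 12 in VM cells and 3 of 13 in VIM cells, beside 19.5%, 24.8% and 24.3% of all genes. Fkbp14, an endoplasmic reticulum prolyl isomerase, fell in every line, with differences of −1.39 ± 0.07 in MYC, −2.06 ± 0.13 in VM and −1.93 ± 0.09 in VIM cells (SE). Including it, 1 of the list was higher and 2 lower in MYC cells, 2 lower in VM cells and 3 lower in VIM cells. Serpinh1, the collagen chaperone HSP47, also differed widely between the lines. It was at 16170 to 17010 units in MYC cells with Dox and at 887.0 to 939.0 in VIM cells, but at 0 to 0.851 in VM cells. Fkbp10, another collagen prolyl isomerase, was at 1320 to 1501 units in MYC cells with Dox and under 3 units in VM and VIM cells with Dox. In tumours the 2 collagen galactosyltransferases, named for the size of their differences, went opposite ways. Of all genes 37.4%, 39.8% and 39.6% were called in MYC, VM and VIM tumours against kidney. Glt25d1 rose by 1.92 ± 0.13, 1.57 ± 0.14 and 1.80 ± 0.13 in MYC, VM and VIM tumours against kidney, and Glt25d2 fell, with differences of −4.65 ± 0.55, −2.87 ± 0.36 and −4.87 ± 0.68 (SE).

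Of 9 procollagen processing proteases, 1 rose and 3 fell with Dox in MYC cells, 1 fell in VM cells, and 1 rose and 3 fell in VIM cells, with 8, 7 and 8 of them tested, beside 19.5%, 24.8% and 24.3% of all genes called. Bmp1, which cleaves procollagen C-propeptides and the Lox propeptide, fell in all 3 lines, with differences of −1.28 ± 0.04, −1.94 ± 0.05 and −1.59 ± 0.05 (SE). Against kidney 1 was higher and 3 lower in MYC tumours, 1 higher and 5 lower in VM tumours, and 2 higher and 3 lower in VIM tumours, of 8 tested each and beside 37.4%, 39.8% and 39.6% of all genes called. Tll1, a protease related to Bmp1, fell, with differences of −3.61 ± 0.51, −4.07 ± 0.50 and −3.96 ± 0.51 in MYC, VM and VIM tumours (SE). Adamts3, which cleaves procollagen N-propeptides, fell as well, with differences of −3.20 ± 0.61, −3.32 ± 0.55 and −2.46 ± 0.62 (SE). Tll1 was at 17.3 to 50.6 units in kidney and at or under the floor in all VM and VIM tumour libraries. Adamts3 was at or under the floor in all MYC and VM tumour libraries. The sizes of these differences thus depend on the floor and the pseudocount. Bmp1 rose in all tumour groups, by 3.04 ± 0.575 in MYC, 2.39 ± 0.50 in VM and 1.59 ± 0.50 in VIM tumours (SE).

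Substrates of the lysyl oxidases and their elastic fibre partners fell with Dox in large numbers. Of the 18 listed, 14 of 18 tested were lower in MYC cells, 11 of 16 in VM cells and 10 of 16 in VIM cells, and 0 were higher in any line, beside 15%, 18.9% and 16.6% of all genes called lower. The median differences were −1.39, −1.52 and −1.49 on the log2 scale. The collagen I chain Col1a1 had the largest difference in each line, −2.49 ± 0.105 in MYC, −3.03 ± 0.26 in VM and −3.19 ± 0.32 in VIM cells (SE). Without Dox it was at 380.6 to 427.7 units in MYC but at 17.6 to 25.8 in VM and 43.9 to 72.1 in VIM cells. With Dox it was at 1.48 to 2.55 units in VM cells, at or under the floor in all libraries, and at 2.42 to 12.5 in VIM cells. The size of its difference in VM cells thus depends on the floor and the pseudocount. Col5a2 was highest in VIM cells among the lines, at 7767 to 8656 units with Dox, against 199.4 to 230.6 in MYC and at most 2.55 in VM cells. For the tumours, genes were named for the size of their differences and do not stand for the list. Of all genes 37.4%, 39.8% and 39.6% were called in MYC, VM and VIM tumours against kidney. Fbln5, which ties elastin to Loxl1, fell, with differences of −4.05 ± 0.40, −6.56 ± 0.65 and −5.01 ± 0.50 in MYC, VM and VIM tumours (SE). The matricellular gene Postn rose by 4.37 ± 0.765, 5.52 ± 1.21 and 3.94 ± 0.55 from 2.68 to 13.1 units in kidney. Its values spanned 83.9 to 5149 units in VM tumours. Since kidney lay near the floor, the sizes of these differences depend on the floor and the pseudocount.

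Among 13 other targets of HIF, 7 were higher in VM than in MYC cells with Dox and 8 in VIM than in MYC cells, with 0 lower in both, beside 24.6% and 23.9% of all genes called. Those called higher were 966 of 14779 and 831 of 14685 genes. Without Dox 9 were higher and 1 lower in either comparison, beside 24.9% and 26.2% of all genes called (1268 of 15182 and 1024 of 14875 higher). Egln3, a HIF prolyl hydroxylase, was at 4286 to 4452 units in VM, at 2086 to 2351 in VIM and at 187.3 to 220.2 in MYC cells with Dox. In the tumours 9 were higher and 0 lower in VM, 7 higher and 1 lower in VIM, and 2 higher and 1 lower in MYC tumours against kidney, beside 39.8%, 39.6% and 37.4% of all genes called. Those called higher were 17.3% in VM tumours, 18.9% in VIM tumours and 3100 of 16490 genes in MYC tumours. Ankrd37 was at 570.1 to 1092 units in VM and 226.8 to 506.7 in VIM tumours, and at 9.37 to 16.3 in kidney. Of the members usually counted with them, Plod2 followed the order of Vhl status in the means of cells and tumours (MYC below VM and VIM). P4ha2 did so in tumours and in cells without Dox. P4ha1 did not in tumours, where its mean was 1241 units in VIM and 1948 in MYC tumours. In cells the P4ha1 means of VM and MYC were close, and these groups overlapped. They were 2912 and 2849 units with Dox and 5354 and 5261 without. In cells Lox and Loxl2 did not follow the order of Vhl status. There the means of VM were below those of MYC (1234 against 1648 units with Dox for Loxl2). In tumours the mean of Lox was lowest in VM (114.4 units) and that of Loxl2 in VIM tumours (2320). The fits, which count mouse 2983 once, put VM and VIM tumours above MYC tumours. The differences were 1.05 and 1.815 for Lox and 1.43 and 0.85 for Loxl2 on the log2 scale. Without mouse 2917 those of VM tumours were −0.70 for Lox and −0.11 for Loxl2. None of the differences between tumours passed. The list medians against kidney were 0.03, 1.57 and 1.33 on the log2 scale in MYC, VM and VIM tumours, and those of all genes 0.07, −0.05 and 0.01.

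The likeness of patterns was described over the 10 group means of log2(value + 1), which share libraries and cover cells and tissue alike. Among 13354 genes, the closest to Lox were Chrdl1 (r = 0.983), Ehbp1l1 (0.975) and Col4a6 (0.973). Stom came closest to Loxl2 (0.994), Dlg5 to Loxl4 (0.988), Mlkl to Loxl1 (0.950) and Serpinb9b to Plod2 (0.982). Loxl3 had no gene above 0.877 (Ckb), Copz2 was the closest to Plod1 (0.947) and Gpr98 to P4ha2 (0.916). P4ha1 and Plod3 were alike (0.982), with Tpm4 (0.983) nearest to P4ha1 and Sepn1 (0.983) to Plod3. Among the members Plod2 with Plod3, Plod2 with P4ha1 and Loxl4 with P4ha1 (each 0.90), Loxl4 with Plod3 (0.86) and Lox with Loxl1 (0.83) came next, and the lowest value was that of Loxl3 with Loxl4 (−0.46).

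By position (NCBIM37, the mm9 assembly), the genes are spread over the genome. Lox lies at chr18:52675723-52689521 on the minus strand. Loxl1 (chr9:58135530-58161019, minus strand) and Plod2 (chr9:92437061-92503266, plus strand) share a chromosome but lie far apart. Loxl2 lies at chr14:70008978-70095640 on the plus strand, Loxl3 at chr6:82984167-83002556 on the plus strand and Loxl4 at chr19:42668472-42687303 on the minus strand. Plod1 lies at chr4:147283862-147310876 on the minus strand, Plod3 at chr5:137462889-137472518, P4ha1 at chr10:58786044-58836052 and P4ha2 at chr11:53913597-53945167, all 3 on the plus strand. The values are sums over whole genes, so exons and isoforms were not told apart.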

How the data were processed

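RNAseq of mouse kidney tumour cell lines, tumours and normal kidney was analysed from 1 table. The authors aligned reads to mm9 with MapSplice and estimated gene levels with RSEM (SAMtools and Picard 1.64 are also named), and the deposited signal is scaled so that the upper quartile is 1000 (998.1 to 1000 when checked). These values are not read counts. A single read was taken to be worth the commonest nonzero value below 3 units, which made 94.1% to 95.9% of values under 20 reads whole within 0.02. Estimated depth was 12.4 to 36.6 M reads in cells and 8.22 to 15.5 M in tissue, and floors cover counting error only. Differences were tested two-sided with limma 3.58.1 in R 4.3.3, using log2(value + 1), moderated variances with a trend and only the groups compared, over genes above 0 in at least 4 libraries (2 units in tissue). This scale understates changes of low genes. A gene passed at a Benjamini-Hochberg adjusted p under 0.05 over all genes tested and a log2 difference over 1. Folds are ratios of means over libraries.

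The 10 members and all gene lists were chosen with earlier results of these data known. Named beside the members were Myc, Vhl, Cdkn2a, P4ha3, P4hb, up to 3 genes per list and comparison with the largest differences that passed, and the 3 nearest genes by correlation among those with a group mean of at least 50 units. Acta2, Pdgfrb, Cspg4, Col1a2, Cdh16, Pax2, Thy1, Lum and Rgs5 were named after their values were seen. Of 10 fibroblast markers 9 had a row, and Col6a3 is not analysed here. The 2 rows sharing a name were left out, and a neighbour of Plod2 listed under a spreadsheet date is not named. Alternatives were other pseudocounts (0.1, 10), other filters (none, or a mean of 10 units), TMM with trims of 30% and 5%, quantile normalization, no trend, limma voom on recovered reads, one fit of all groups, a replicate block, kidney subsets, mouse 2983 libraries kept apart and each library left out. The procedure was tested on simulated data. Positions come from NCBIM37 and promoters from RefSeq, and matplotlib 3.10.9 under Python 3.11.15 drew the figures.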

Additional observations from a re-analysis of the deposited data

Results flagged for a closer look

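In 6 of 68 sets of 4 or 5 libraries 1 library stood far from the others, where chance alone gives about 1 in 20. Loxl1 was 4545 units in replicate 4 of VIM cells without Dox (others 4090 to 4128). Loxl2 was 5016 units in replicate 2 of VM cells without Dox (others 4713 to 4758), which is also the deepest library. Loxl4 was 145.2 units in replicate 3 of MYC cells with Dox (others 173.3 to 176.6) and 137.9 units in replicate 5 of normal kidney (others 14.7 to 45.6). P4ha2 was 1999 units in replicate 3 of MYC cells with Dox (others 1878 to 1898) and 1919 units in replicate 1 of VIM cells with Dox (others 1724 to 1756).

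Of 30 interactions of line and Dox over the members, 7 passed. The Dox response differed between VIM and VM cells for Lox (−1.41) and Plod1 (1.13) on the log2 scale. It differed between VM and MYC cells for Lox (1.43), Loxl3 (2.18) and Plod1 (−1.42), and between VIM and MYC cells for Loxl3 (1.32) and P4ha2 (−1.30). The Lox values rest on VM cells that were at the floor.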

How the results depend on the processing

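No member changed its direction while passing, under any alternative. The count of members that passed was within 1.5 times of that reported under every alternative, apart from the following. For VM tumours against kidney (3) it was 5 under quantile normalization, and with each library left out it was 3 to 5, the latter without replicate 2 (mouse 3055). One fit of all groups gave 2 for VM against MYC tumours (Loxl1 and P4ha2), 1 for VIM against MYC tumours and 1 for VIM against VM tumours, where 0 had passed, and keeping the libraries of mouse 2983 apart gave 1 for VM against MYC tumours. The interaction of VIM and VM cells (2) gave 1 with a pseudocount of 0.1, 1 with a pseudocount of 10, 1 under quantile normalization and 1 with limma voom. Over 179 tested values, 12 calls were lost and 9 gained in 1750 refits under other settings, and 2 were lost and 9 gained in 1612 refits without 1 library. Values that had not passed changed sign in 21 and 48 of these. The causes were not tested.

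Replicate numbers are in the labels of VM and VIM cells only, and same-numbered libraries did not deviate together (mean correlations of −0.0188, 0.00528, 0.00535 and 0.00502), so the samples share only a number. A replicate block gave 4 members for Dox in VM cells, 5 for Dox in VIM cells, 4 and 5 for VIM against VM cells with and without Dox, and 2 for their interaction, the same counts as without it. In each of these comparisons 0 or 1 of 4 libraries correlated best with its own number. Depth limits Lox in VM cells, where a floor of 3 reads is 1.16 to 2.65 units, and Loxl3. With 3 tumour libraries per genotype, only large differences between tumours can pass.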
